A study of Mus musculus with 12 samples.

Results

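The 9 genes described here are mouse genes of fatty acid synthesis, desaturation and oxidation: Acly, Acss2, Acaca, Fasn, Elovl6, Scd1, Scd2, Cpt1a and Ech1. They were chosen by name, as enzymes of these pathways, from a table of 24454 Entrez gene IDs matched to mouse symbols. Earlier results of these data were known when they were chosen. All 9 were found, and all 9 passed the filter on low values that left 12502 genes to test (at least 1 CPM, counts per 1000000 reads, in at least 2 libraries).

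The libraries came from 3 mesenchymal mouse breast cancer cell lines. These were MT∆Ecad, a line named for the deletion of E-cadherin with the strain label MMTV-Neu, and Py2T LT and PyMT-1099 LT, both labelled MMTV-PyMT. In these mice a mammary tumour virus promoter drives the oncogene (Neu or the polyoma middle T antigen) in the mammary gland. Cells of each line received either an Nrf2-targeting siRNA (siNrf2) or a control siRNA without a target (siCtl), both from Dharmacon, 48 hours before harvest, and all cultures grew in DMEM with fetal bovine serum. Each of the 6 groups holds 2 libraries of ribosomal-RNA-depleted total RNA, called biological duplicates in the series text. Each line is a single line, so it does not stand for a tumour type. The labels name a single siNrf2 reagent, so loss of Nrf2 and any other effect of that siRNA cannot be told apart. These are bulk samples, in which fewer cells that express a gene and less of its RNA per cell cannot be told apart.

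Cells build fatty acids from acetyl-CoA, which ATP citrate lyase (Acly) makes from citrate and acetyl-CoA synthetase (Acss2) makes from acetate. Acetyl-CoA carboxylase (Acaca) turns it into malonyl-CoA, fatty acid synthase (Fasn) assembles palmitate, Elovl6 lengthens that chain, and the stearoyl-CoA desaturases Scd1 and Scd2 place a double bond in it. In the opposite direction, Cpt1a loads long chains onto carnitine for entry into mitochondria, a step that malonyl-CoA blocks, and Ech1 moves double bonds of unsaturated chains during oxidation. Factors of the SREBP family are known to drive the synthesis genes, often together with NF-Y, and factors of the PPAR family drive many oxidation genes, while Nrf2 binds antioxidant response elements of its own targets.

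RefSeq windows of GRCm38.p6, from 250 bases before to 50 bases after a start of a gene, were matched for 7 of the 9 genes. For Acss2, Ech1, Elovl6 and Acly this start is the outermost one of the gene in RefSeq. The windows of Fasn, Cpt1a and Acaca are built on a start 619, 975 and 65803 bases inside the gene, so these 3 windows do not cover the outermost 5′ end. All 7 windows were searched on both strands for the sterol regulatory element TCACNCCAC, the antioxidant response element core TGACNNNGC, the E-box CACGTG and the NF-Y box CCAAT. The windows of Acss2, Cpt1a and Ech1 are printed because these 3 genes were higher with siNrf2 on average over the lines, and that of Fasn because it held the NF-Y box most often. Capitals mark the matches, each window runs 5′ to 3′ on its gene's strand, and positions count from the start the window is built on, with −1 the base before it.
Acss2 promoter, chr2:155517793-155518092, plus strand: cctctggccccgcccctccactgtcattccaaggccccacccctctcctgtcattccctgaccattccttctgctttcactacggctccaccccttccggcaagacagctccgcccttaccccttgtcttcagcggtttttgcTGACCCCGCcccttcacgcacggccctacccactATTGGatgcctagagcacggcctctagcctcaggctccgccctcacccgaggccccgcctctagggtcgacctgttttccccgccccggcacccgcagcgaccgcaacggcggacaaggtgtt
Cpt1a promoter, chr19:3323051-3323350, plus strand: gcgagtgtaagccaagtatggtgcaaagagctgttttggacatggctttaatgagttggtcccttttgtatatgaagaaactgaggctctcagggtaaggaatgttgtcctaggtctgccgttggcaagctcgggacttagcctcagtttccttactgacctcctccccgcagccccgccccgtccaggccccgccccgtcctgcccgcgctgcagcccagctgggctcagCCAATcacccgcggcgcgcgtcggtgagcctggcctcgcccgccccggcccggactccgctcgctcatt
Ech1 promoter, chr7:28825088-28825387, plus strand: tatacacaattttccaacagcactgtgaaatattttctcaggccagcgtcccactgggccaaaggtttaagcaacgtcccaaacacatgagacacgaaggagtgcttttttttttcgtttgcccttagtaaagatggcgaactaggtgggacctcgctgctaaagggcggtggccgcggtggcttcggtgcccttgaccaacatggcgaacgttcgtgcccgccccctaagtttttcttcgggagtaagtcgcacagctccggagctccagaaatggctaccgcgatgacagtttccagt
Fasn promoter, chr11:120824498-120824797, minus strand: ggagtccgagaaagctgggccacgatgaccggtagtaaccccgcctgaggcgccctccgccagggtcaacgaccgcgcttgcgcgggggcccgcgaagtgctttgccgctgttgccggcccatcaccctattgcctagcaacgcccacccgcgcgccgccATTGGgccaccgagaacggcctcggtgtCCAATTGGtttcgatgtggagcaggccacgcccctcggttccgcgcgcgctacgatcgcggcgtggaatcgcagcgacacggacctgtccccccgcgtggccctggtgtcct
The Acss2 window was the only one of the 7 with the antioxidant response element core, at −107 to −99, and 12.4% of all 32851 promoter windows hold it. NF-Y boxes lay in 4 of the 7 windows, against 37.4% of all windows. Fasn had them at −90 to −86, −62 to −58 and −59 to −55, where the last pair overlap on opposite strands. Acss2 had one on the minus strand at −73 to −69, Cpt1a one at −19 to −15 and Acly one downstream of its start, at 38 to 42. The sterol regulatory element and the E-box, held by 1.24% and 7.15% of all windows, were in 0 of the 7, and the Ech1 and Elovl6 windows and the internal Acaca window held none of the 4 motifs. A match of letters is a description of the window and not a bound site.

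The libraries held 27088970 to 37070635 reads, so 1 CPM stood for 27.1 to 37.1 reads. Nfe2l2, which encodes Nrf2, was at 52.4 ± 2.27 CPM in siNrf2 and 208 ± 0.738 CPM in siCtl libraries of MT∆Ecad (SD, n = 2 each), and its siNrf2 level was 0.252, 0.268 and 0.261 of the siCtl level in MT∆Ecad, Py2T LT and PyMT-1099 LT. Of 13 mesenchymal markers, 13 reached 1 CPM in MT∆Ecad and Py2T LT and 10 in PyMT-1099 LT, where Twist1, Snai2 and Prrx1 had 0 reads. The 11 adipocyte markers summed to 41.9 to 58.3 CPM in MT∆Ecad, 7.31 to 9.21 CPM in Py2T LT and 5.60 to 6.17 CPM in PyMT-1099 LT, and 4, 4 and 2 of them reached 1 CPM with siNrf2 and 3, 3 and 2 with siCtl. Adipoq had 0 reads in MT∆Ecad and PyMT-1099 LT, and Retn and Cfd had 0 in all 3 lines, while Cebpa, Lipe and Pparg averaged 30.6, 11.7 and 9.55 CPM in siNrf2 libraries of MT∆Ecad. The part of these markers in the differences between lines was not tested. Cdh1, which encodes the E-cadherin named in MT∆Ecad, averaged 0.477 and 0.393 CPM there in siNrf2 and siCtl libraries, 16.4 and 13.9 CPM in Py2T LT and 61.8 and 49.7 CPM in PyMT-1099 LT. The 13 epithelial markers summed to 1128 to 1295 CPM in MT∆Ecad, 2604 to 3626 CPM in Py2T LT and 3812 to 5458 CPM in PyMT-1099 LT, and the 10 immune and endothelial markers to 3.95 to 6.39, 7.58 to 8.59 and 92.9 to 129 CPM in the same order of lines.

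The 3 lines carried different sets of these enzymes with siCtl. There, 4 of the 9 genes were higher and 4 lower in MT∆Ecad than in PyMT-1099 LT, 4 were higher and 2 lower in MT∆Ecad than in Py2T LT, and 5 were higher and 4 lower in Py2T LT than in PyMT-1099 LT (limma adjusted p under 0.05). Lines differed in much of the transcriptome: the shares of all tested genes called higher and lower were 27.0% and 30.6%, 25.9% and 28.6%, and 28.1% and 27.5% in the same order of comparisons. The counts of 6 to 9 of 9 therefore stand on a background in which most tested genes were called. Per length of exon, Scd2 was the highest of the 9 in each line with siCtl, at 767 CPM per kb in MT∆Ecad, 477 in Py2T LT and 2665 in PyMT-1099 LT. The lowest was Acss2 in MT∆Ecad and Py2T LT (4.36 and 1.95 CPM per kb) and Scd1 in PyMT-1099 LT (0.0985 CPM per kb).

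Scd1 differed most between lines of the 9 genes. This desaturase gene, on chromosome 19 (44394450 to 44407709, GRCm38), had 1137 and 1591 CPM in siNrf2 against 732 and 1005 CPM in siCtl libraries of MT∆Ecad. It had 314 and 350 CPM in siNrf2 against 365 and 443 CPM in siCtl libraries of Py2T LT. In PyMT-1099 LT it had 0.410 and 0.337 CPM in siNrf2 against 0.466 and 0.486 CPM in siCtl libraries. Scd1 was thus nearly absent from PyMT-1099 LT, where the last values stand for 12, 12, 13 and 17 reads. The siCtl level was 1825 times as high in MT∆Ecad as in PyMT-1099 LT and 849 times as high in Py2T LT as in PyMT-1099 LT. On the log2(CPM + 1) scale used for every test, which understates changes of low genes, these differences were 9.18 and 8.09 (SE 0.19 each, limma adjusted p 1.78e-10 and 4.88e-10). MT∆Ecad was above Py2T LT by 1.09 (SE 0.19, limma adjusted p 8.38e-04).

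Scd2 ran in another order. This desaturase, encoded in the same chromosome 19 cluster as Scd1 (44293676 to 44306864), had 5174 and 6216 CPM in siNrf2 against 3724 and 4647 CPM in siCtl libraries of MT∆Ecad. Py2T LT had 2309 and 2435 CPM in siNrf2 against 2440 and 2766 CPM in siCtl libraries. PyMT-1099 LT had 14556 and 15982 CPM in siNrf2 against 13483 and 15593 CPM in siCtl libraries. Scd2 was the most abundant gene of the table in all 4 PyMT-1099 LT libraries, so the line with almost no Scd1 had the highest Scd2. Its siCtl log2 level was lower in MT∆Ecad than in PyMT-1099 LT (−1.80, SE 0.14, limma adjusted p 2.58e-06) and lower in Py2T LT than in PyMT-1099 LT (−2.48, SE 0.14, limma adjusted p 2.62e-07). MT∆Ecad was above Py2T LT by 0.68 (SE 0.14, limma adjusted p 0.00245).

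Scd1 made up a different share of the reads of the pair in each line. In MT∆Ecad it held 18.0% and 20.4% of Scd1 plus Scd2 reads in siNrf2 libraries and 16.4% and 17.8% in siCtl libraries. In Py2T LT it held 12% and 12.6% in siNrf2 and 13.0% and 13.8% in siCtl libraries, with exact (Clopper-Pearson) 95% intervals of 11.7% to 12.2% for the lowest of these shares and 20.2% to 20.5% for the highest of MT∆Ecad. In PyMT-1099 LT the shares lay between 0.00211% (interval 0.00109% to 0.00368%) and 0.00346% (0.00184% to 0.00591%). The share was higher in both siNrf2 libraries than in both siCtl libraries of MT∆Ecad and lower in both of Py2T LT. The nearest libraries of MT∆Ecad had overlapping intervals, 17.9% to 18.2% with siNrf2 and 17.6% to 18.0% with siCtl. Those of Py2T LT met at 12.8% (12.3% to 12.8% with siNrf2 and 12.8% to 13.2% with siCtl). These intervals cover counting error only. Of the 4888 different stretches of 81 bases (the read length) in Scd1 transcripts, 148 also occur in another gene, among them Scd2, Scd3 and Scd4, and for Scd2 it is 85 of 5461. Whether the 12 to 17 Scd1 reads of PyMT-1099 LT are misplaced Scd2 reads was not tested.

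**Figure D1:**
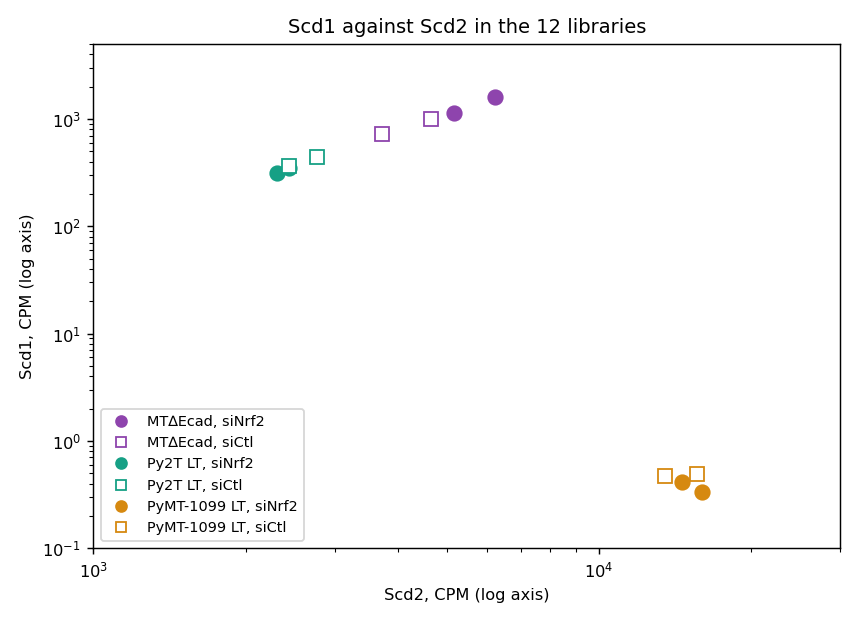
Scd1 (vertical) against Scd2 (horizontal), both in CPM on log axes, in the 12 libraries, with filled circles for siNrf2, open squares for siCtl and a colour for each line. The 4 PyMT-1099 LT libraries lie at 13483 to 15982 CPM of Scd2 and 0.337 to 0.486 CPM of Scd1, while the MT∆Ecad and Py2T LT libraries lie at 314 to 1591 CPM of Scd1.

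Elovl6, the elongase upstream of the desaturases, was also low in PyMT-1099 LT. It had 174 and 151 CPM in siNrf2 against 173 and 168 CPM in siCtl libraries of MT∆Ecad. Py2T LT had 98.3 and 174 CPM in siNrf2 against 117 and 169 CPM in siCtl libraries. PyMT-1099 LT had 7.65 and 15.9 CPM in siNrf2 against 13.5 and 19.1 CPM in siCtl libraries. The siRNA groups overlapped in each line, and the replicates of Py2T LT and PyMT-1099 LT lay further apart than the group means. With siCtl, Elovl6 was higher in MT∆Ecad than in PyMT-1099 LT by 3.33 on the log2 scale (SE 0.35, limma adjusted p 2.61e-05) and higher in Py2T LT than in PyMT-1099 LT by 3.06 (SE 0.35, limma adjusted p 5.29e-05). MT∆Ecad and Py2T LT were not told apart (0.27, 95% interval −0.52 to 1.06).

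The chain-building enzymes varied less between lines. Fasn, on chromosome 11 (120805958 to 120825166), had 1076 and 939 CPM in siNrf2 against 1251 and 1223 CPM in siCtl libraries of MT∆Ecad. It had 2000 and 1618 CPM in siNrf2 against 1980 and 1852 CPM in siCtl libraries of Py2T LT, and 1356 and 1235 CPM in siNrf2 against 1267 and 1362 CPM in siCtl libraries of PyMT-1099 LT. Only in MT∆Ecad did the siNrf2 and siCtl libraries not overlap for Fasn, with siNrf2 below. The share of all tested genes whose groups do not overlap was not computed. With 2 libraries a group, groups that lie apart are therefore only described, for this and every other gene. With siCtl, Fasn was lower in MT∆Ecad than in Py2T LT (−0.63, SE 0.11, limma adjusted p 0.00122) and higher in Py2T LT than in PyMT-1099 LT (0.54, SE 0.11, limma adjusted p 0.00281). Acaca ranged over 112 to 121 CPM in MT∆Ecad, 122 to 155 CPM in Py2T LT and 65.7 to 72.9 CPM in PyMT-1099 LT. In MT∆Ecad both siNrf2 libraries were below both siCtl libraries (112 and 116 CPM against 119 and 121 CPM), and in the other lines the groups overlapped. With siCtl it was higher in MT∆Ecad than in PyMT-1099 LT by 0.76 and higher in Py2T LT than in PyMT-1099 LT by 1.02 (SE 0.11 each, limma adjusted p 2.57e-04 and 3.61e-05). Of the 81-base stretches of annotated Acaca transcripts, 26.0% also occur in another gene, so its level depends on how such reads were assigned.

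Acly had the smallest siNrf2 difference of the 9 in each line, at most 0.01 on the log2 scale. It ranged over 457 to 487 CPM in MT∆Ecad, 885 to 912 CPM in Py2T LT and 528 to 541 CPM in PyMT-1099 LT. With siCtl it was lower in MT∆Ecad than in Py2T LT (−0.93, SE 0.07, limma adjusted p 1.87e-06) and higher in Py2T LT than in PyMT-1099 LT (0.76, SE 0.07, limma adjusted p 7.66e-06). The small difference between MT∆Ecad and PyMT-1099 LT (−0.17, SE 0.07, limma adjusted p 0.0497) did not hold with TMM scaling (limma adjusted p 0.166), with edgeR (0.183) or with DESeq2 (0.277), and it passed in 2 of the 12 fits without a library (limma adjusted p 0.0426 to 0.256 over these fits).

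Acss2 showed the largest change with siNrf2 among the 9. This gene (chromosome 2, 155518043 to 155562743) had 34.6 and 40.4 CPM in siNrf2 against 15.5 and 17.8 CPM in siCtl libraries of MT∆Ecad. In Py2T LT it had 7.69 and 7.59 CPM in siNrf2 against 7.02 and 7.88 CPM in siCtl libraries, and in PyMT-1099 LT 10.1 and 10.1 CPM in siNrf2 against 10.3 and 10.2 CPM in siCtl libraries. The groups lay apart in MT∆Ecad, with siNrf2 above, overlapped in Py2T LT and lay close together in PyMT-1099 LT, with siNrf2 just below. The MT∆Ecad siNrf2 mean was 2.25 times the siCtl mean, and the ratio was 1.03 in Py2T LT and 0.985 in PyMT-1099 LT. The rise in MT∆Ecad was 1.12 on the log2 scale (SE 0.11, limma adjusted p 5.92e-04), against 0.03 in Py2T LT and −0.02 in PyMT-1099 LT (SE 0.11 each). Acss2 was the only member whose siNrf2 effect differed between lines by the F test (limma adjusted p 0.0134), where 2.18% of all tested genes were called. Its effect was larger in MT∆Ecad than in PyMT-1099 LT by 1.14 (95% interval 0.78 to 1.51, limma adjusted p 0.0121) and larger than in Py2T LT by 1.09 (0.73 to 1.46, limma adjusted p 0.0122). That difference between lines missed the threshold by edgeR (adjusted p 0.0514) and in limma fits without MT∆Ecad siCtl replicate 1 (0.0863) or MT∆Ecad siNrf2 replicate 2 (0.0756), whereas the rise within MT∆Ecad passed in all 12 fits that left out a library. Exons of Acss2 share 152 bases with Acss2os and 13 bases with Gss on the opposite strand, and the strand setting of the counting is not given in the sources used here.

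The oxidation genes Cpt1a and Ech1 rose with siNrf2 in MT∆Ecad. Cpt1a (chromosome 19, 3322326 to 3385735) had 118 and 97.7 CPM in siNrf2 against 75.6 and 62.1 CPM in siCtl libraries of MT∆Ecad. It had 80.2 and 66.4 CPM in siNrf2 against 77.0 and 61.0 CPM in siCtl libraries of Py2T LT, and 182 and 176 CPM in siNrf2 against 144 and 139 CPM in siCtl libraries of PyMT-1099 LT. The groups overlapped in Py2T LT and lay apart in the other lines, with siNrf2 above. In MT∆Ecad the rise was 0.64 (SE 0.15, limma adjusted p 0.0204), against 0.09 in Py2T LT and 0.34 in PyMT-1099 LT (SE 0.15 each), of which the value in PyMT-1099 LT passed only with the replicate number as a block (limma adjusted p 0.0127, and 0.50 in the unblocked fit). The MT∆Ecad call was lost in each fit that left out a library of that line, with limma adjusted p from 0.0519 to 0.120.

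Ech1 (chromosome 7, 28825338 to 28832239) had 55.5 and 65.8 CPM in siNrf2 against 33.2 and 38.4 CPM in siCtl libraries of MT∆Ecad. It had 27.9 and 23.7 CPM in siNrf2 against 25.8 and 22.3 CPM in siCtl libraries of Py2T LT, and 60.9 and 53.4 CPM in siNrf2 against 48.4 and 46.1 CPM in siCtl libraries of PyMT-1099 LT. As for Cpt1a, siNrf2 libraries lay above siCtl libraries without overlap in MT∆Ecad and PyMT-1099 LT and overlapped them in Py2T LT. This is again a description, without a share of all genes beside it. The rise in MT∆Ecad was 0.74 (SE 0.13, limma adjusted p 0.00715), against 0.09 in Py2T LT and 0.27 in PyMT-1099 LT (SE 0.13 each). In PyMT-1099 LT the limma adjusted p was 0.567, and 0.0395 with the block. Without MT∆Ecad siCtl replicate 1 or siNrf2 replicate 2 the MT∆Ecad value no longer passed (limma adjusted p 0.0708 and 0.0700).

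With siCtl, both oxidation genes were highest in PyMT-1099 LT. For Cpt1a, MT∆Ecad and Py2T LT each differed from PyMT-1099 LT by −1.04 on the log2 scale (SE 0.15, limma adjusted p 2.62e-04 and 2.86e-04). MT∆Ecad and Py2T LT had means of 68.9 ± 9.59 and 69.0 ± 11.3 CPM of Cpt1a with siCtl (SD, n = 2 each) and were not told apart (95% interval of the log2 difference −0.34 to 0.34). Ech1 was lower in MT∆Ecad than in PyMT-1099 LT by −0.39 (SE 0.13, limma adjusted p 0.0314), a call lost with TMM scaling (0.0654), edgeR (0.0666) and DESeq2 (0.0806). It was higher in MT∆Ecad than in Py2T LT by 0.56 (SE 0.13, limma adjusted p 0.00631) and lower in Py2T LT than in PyMT-1099 LT by −0.95 (SE 0.13, limma adjusted p 2.32e-04). For Acss2, MT∆Ecad was above PyMT-1099 LT by 0.65 and above Py2T LT by 1.06, and Py2T LT was below PyMT-1099 LT by −0.41 (SE 0.11 each, limma adjusted p 9.24e-04, 3.65e-05 and 0.0120). Some of these calls rested on a siCtl library. Ech1 in MT∆Ecad against PyMT-1099 LT missed the threshold without MT∆Ecad replicate 1 (limma adjusted p 0.185) or PyMT-1099 LT replicate 1 (0.131) or 2 (0.0776), and Ech1 in MT∆Ecad against Py2T LT without replicate 2 of MT∆Ecad (0.0552) or Py2T LT (0.0508). Acss2 in Py2T LT against PyMT-1099 LT missed it without Py2T LT replicate 1 (limma adjusted p 0.0861) or PyMT-1099 LT replicate 1 (0.0530) or 2 (0.0525).

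**Figure D2:**
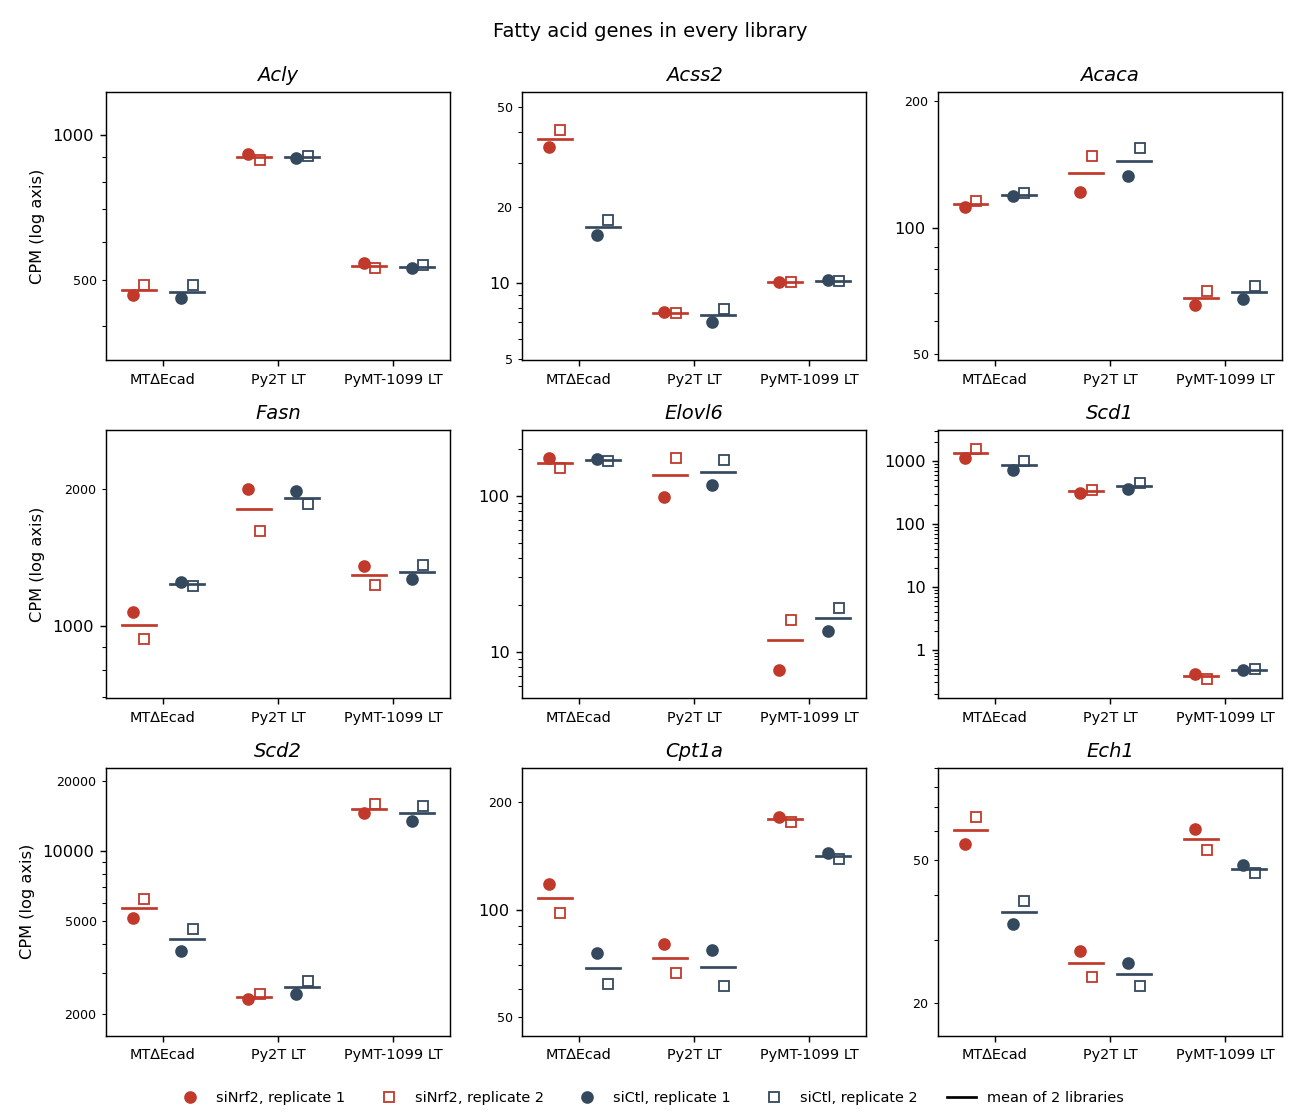
CPM of the 9 genes in every library on log axes, with siNrf2 in red left of siCtl in dark blue for each line, filled circles for replicate 1, open squares for replicate 2 and a bar for the mean of 2 libraries. Acss2 stands clearly apart in MT∆Ecad (34.6 and 40.4 CPM in siNrf2 against 15.5 and 17.8 CPM in siCtl libraries), and Elovl6 and Scd1 are low in PyMT-1099 LT.

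Averaged over the 3 lines, 3 of the 9 genes rose and 0 fell with siNrf2, where 5.99% of all tested genes were called higher and 6.26% lower. The 3 were Acss2 (0.38, SE 0.07, limma adjusted p 0.00986), Ech1 (0.37, SE 0.08, limma adjusted p 0.0187) and Cpt1a (0.36, SE 0.09, limma adjusted p 0.0322). The average of Acss2 rests on MT∆Ecad, since its values in the other lines were near 0. For the 0 that fell, limma gave 0 members below 0 at an unadjusted p under 0.05, and edgeR and DESeq2 called the 3 risers and no other member. The average of Cpt1a lost its call in 8 of the 12 fits without a library (limma adjusted p 0.0587 to 0.0843) and that of Ech1 in 5 (0.0503 to 0.0619). For Cpt1a these were the fits without each PyMT-1099 LT library, siNrf2 replicate 1 or siCtl replicate 2 of Py2T LT, and siNrf2 replicate 1 or siCtl replicate 2 of MT∆Ecad. For Ech1 they were those without siNrf2 replicate 1 or siCtl replicate 2 of PyMT-1099 LT, siCtl replicate 2 of Py2T LT, and siNrf2 replicate 2 or siCtl replicate 1 of MT∆Ecad. The fit with replicate number as a block called 6 of 9, with Scd2 higher (0.13, limma adjusted p 0.00933) and Fasn (−0.14, 0.0452) and Elovl6 (−0.22, 0.0388) lower, but it called 40.0% of all tested genes. Acaca (−0.07), Acly (0.01) and Scd1 (0.09) did not pass in either fit.

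Within MT∆Ecad 4 of the 9 rose and 0 fell, where 8.89% of all tested genes were called higher and 8.42% lower. The risers were Acss2, Ech1, Cpt1a and Scd1, the last by 0.65 (SE 0.19, limma adjusted p 0.0429). Scd1 kept that call in 4 of the 12 fits without a library, with a limma adjusted p of 0.309 without siNrf2 replicate 2 and 0.304 without siCtl replicate 1 of MT∆Ecad. Its limma adjusted p was 0.0542 to 0.0681 without any PyMT-1099 LT library or either siCtl library of Py2T LT, 0.0627 with no filter on low values and 0.183 with the 4 libraries of MT∆Ecad alone. Scd2 missed the threshold in MT∆Ecad (0.45, SE 0.14, limma adjusted p 0.0568) and passed it with TMM scaling (0.0479), edgeR (0.0493), DESeq2 (0.0181) and the block (5.05e-04). Fasn was at −0.30 (SE 0.11, limma adjusted p 0.108) and passed with the block (0.0182). Of the 6 members with an unadjusted p under 0.05 by limma in MT∆Ecad, Fasn was the only one below 0. No share of all genes is given at that threshold, so the 6 cannot be weighed against all genes. TMM-scaled limma, edgeR and DESeq2 called 5 members each. The blocked fit called 5 higher and 1 lower, among 42.6% of all tested genes. The median log2 change of the 9 was 0.45, beside 0.00 over all tested genes.

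In Py2T LT and PyMT-1099 LT limma called 0 of the 9 in either direction. The shares of all tested genes called higher and lower were 0.0560% and 0.0960% in Py2T LT and 0.336% and 0.184% in PyMT-1099 LT. No member had an unadjusted p under 0.05 in these lines by limma, and edgeR and DESeq2 called 0 members in each. Of all tested genes, edgeR called 6 in Py2T LT and 13 in PyMT-1099 LT, and DESeq2 called 33 and 86. The member medians were −0.09 in Py2T LT and −0.02 in PyMT-1099 LT, beside −0.02 and 0.00 over all tested genes. Scd1 in Py2T LT was at −0.28 (95% interval −0.70 to 0.14), and Scd2 at −0.13 (−0.45 to 0.18), with both siNrf2 libraries of each gene below both siCtl libraries. With the block, 3 members passed in PyMT-1099 LT: Cpt1a and Ech1 as given above and Elovl6 (−0.50, limma adjusted p 0.0495, and 0.753 in the unblocked fit), among 9.0% of all tested genes.

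Apart from Acss2, a difference of the siNrf2 effect between lines did not pass limma's F test for the members. The limma adjusted p was 0.178 for Scd1, 0.312 for Scd2, 0.210 for Ech1, 0.425 for Cpt1a and at least 0.714 for the others. With the block these 4 passed too (0.00211, 0.00553, 0.00727 and 0.00635), in a fit that called 19.0% of all tested genes. For these 4 a difference between lines therefore depended on whether same-numbered libraries were paired. The calls of Scd1, Ech1 and Cpt1a in MT∆Ecad do not by themselves show an effect that differs from the other lines.

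**Figure D3:**
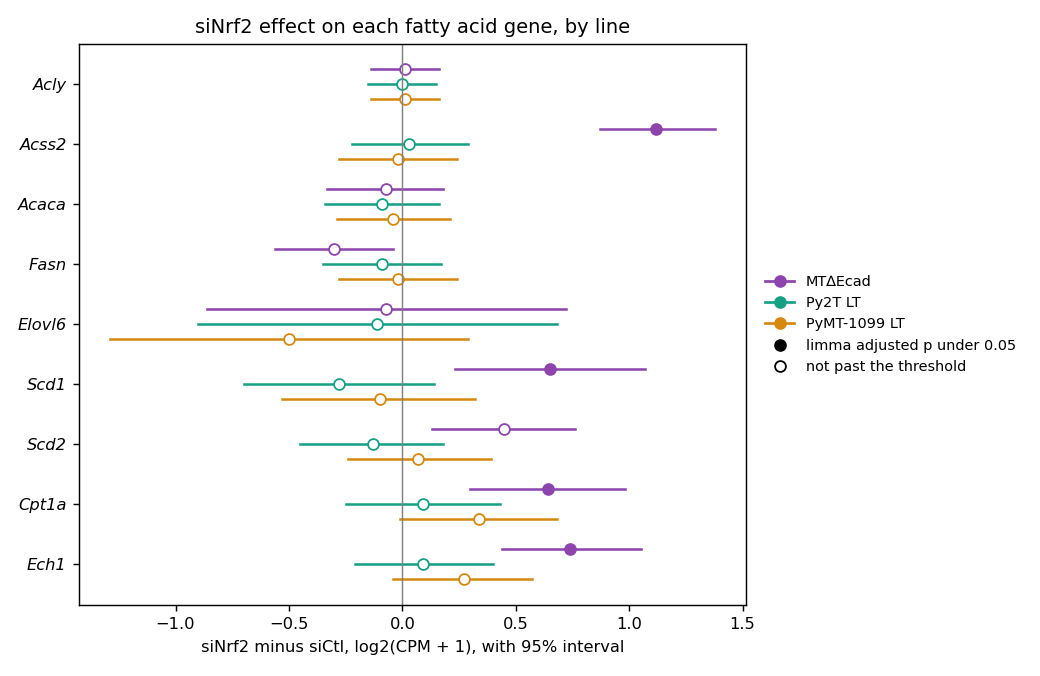
siNrf2 minus siCtl on the log2(CPM + 1) scale (horizontal) with 95% intervals for the 9 genes (rows) in MT∆Ecad, Py2T LT and PyMT-1099 LT (colours), filled where the limma adjusted p was under 0.05. The filled points are Acss2 (1.12), Ech1 (0.74), Scd1 (0.65) and Cpt1a (0.64), all in MT∆Ecad.

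Summed markers of several lists were higher with siNrf2 in MT∆Ecad, and not in that line alone. Such a sum follows its most abundant genes. The mesenchymal marker Fn1 alone had 8807 and 9687 CPM in siNrf2 libraries of MT∆Ecad, against 5690 CPM in siCtl replicate 2. Median log2 changes of the tested markers in MT∆Ecad were 0.20 (mesenchymal), 0.01 (epithelial) and 0.06 (immune and endothelial), beside 0.00 over all tested genes. The mesenchymal markers summed to 20327 to 21377 CPM in siNrf2 against 14940 to 15696 CPM in siCtl libraries of MT∆Ecad, with 3 of 13 tested markers higher (limma adjusted p under 0.05), where 8.89% of all tested genes were. The sums were 12820 to 13083 CPM in siNrf2 against 11963 to 12757 CPM in siCtl libraries of Py2T LT and 11612 to 12236 CPM against 10733 to 11061 CPM in those of PyMT-1099 LT. The epithelial markers summed to 1288 to 1295 CPM in siNrf2 against 1128 to 1233 CPM in siCtl libraries of MT∆Ecad, with 0 of 10 tested markers higher and 1, the keratin Krt14, lower. The immune and endothelial markers summed to 5.71 to 6.39 CPM in siNrf2 against 3.95 to 3.99 CPM in siCtl libraries of MT∆Ecad, with 1 of 3 tested markers, Cd68, higher, and Ptprc, Adgre1 and Cd3e at 0 reads in the siNrf2 libraries. Krt14 and Cd68 are named after their values were seen. In PyMT-1099 LT the epithelial sums were 4581 to 5458 CPM in siNrf2 against 3812 to 4419 CPM in siCtl libraries. The immune and endothelial sums there were 128 to 129 CPM against 92.9 to 94.6 CPM. In Py2T LT the epithelial sums overlapped (2848 to 3626 and 2604 to 3069 CPM). The immune and endothelial sums of Py2T LT were 7.90 to 8.59 CPM against 7.58 to 7.62 CPM. The part of these shifts in the lipid gene results was not tested. The adipocyte markers, whose sum overlapped between the siRNA groups of MT∆Ecad (48.2 to 58.3 CPM in siNrf2 and 41.9 to 52.0 CPM in siCtl libraries), had 0 of 5 tested genes called by limma, edgeR or DESeq2. By limma 2 were higher at an unadjusted p under 0.05, with no share of all genes to set beside them.

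Other genes of the pathways were read by lists of named enzymes, also chosen with earlier results of these data known. Their counts stand beside the shares of all tested genes that limma called, 8.89% higher and 8.42% lower in MT∆Ecad, and 5.99% higher and 6.26% lower on average over the lines. In MT∆Ecad edgeR and DESeq2 called 1600 and 1864 of all tested genes, higher and lower together. No share of all genes is given at an unadjusted p, so counts at that threshold cannot be weighed against all genes. Peroxisomal oxidation had 9 of 19 tested genes higher and 0 lower with siNrf2 in MT∆Ecad by limma, edgeR and DESeq2 alike (11 and 0 at an unadjusted p under 0.05), with a median log2 change of 0.42 beside 0.00 over all genes, where 8.89% of all genes were called higher. Averaged over lines, 3 of the 19 rose, beside 5.99% of all genes. Decr2, a reductase for unsaturated chains, rose by 0.73 in MT∆Ecad (SE 0.12, limma adjusted p 0.00447), and the bifunctional enzyme Ehhadh rose there by 0.68 (SE 0.12, limma adjusted p 0.00574). Ehhadh averaged 0 and 0.0143 CPM in siNrf2 and siCtl libraries of PyMT-1099 LT, which add almost no spread to the shared estimate, so its SE may be too small. The oxidase Acox3 rose in MT∆Ecad by 0.76 (limma adjusted p 0.00952). In Py2T LT and PyMT-1099 LT 0 of the 19 passed by limma, edgeR or DESeq2, and limma put 2 lower in Py2T LT, and 2 higher and 1 lower in PyMT-1099 LT, at an unadjusted p under 0.05. Limma called 0.0560% of all tested genes higher and 0.0960% lower in Py2T LT, and 0.336% and 0.184% in PyMT-1099 LT. The 0 of 19 therefore does not set the list apart in these lines. By limma's F test the siNrf2 effect differed between lines for 1 of the 19, beside 2.18% of all tested genes. The limma adjusted p was 0.121 for Decr2, 0.115 for Ehhadh and 0.102 for Acox3. Of the lists below, only uptake and binding held genes that passed, Acsbg1 (0.0162) and Slc27a6 (0.0229). A call in MT∆Ecad therefore does not by itself show an effect that differs from the other lines.

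Mitochondrial oxidation had 7 of 26 genes higher and 0 lower in MT∆Ecad by limma, beside 8.89% of all genes called higher by limma, with a median of 0.31. The counts were 14 and 0 at an unadjusted p under 0.05 by limma, with no share of all genes to set beside them. They were 3 and 0 by edgeR, which called 1600 of all tested genes there, and 7 and 0 by DESeq2, which called 1864. Cpt2, which takes the chain off carnitine inside the mitochondrion after Cpt1a, rose by 0.43 (SE 0.13, limma adjusted p 0.0463). The dehydrogenases Acad11 and Acads rose by 0.53 and 0.46 (limma adjusted p 0.00618 and 0.0452), the trifunctional protein subunit Hadha by 0.35 (0.0205) and the thioesterase Acot2 by 0.55 (0.0452). On average over lines only Acad11 (0.23, limma adjusted p 0.0255) and Hadha (0.18, 0.0428) passed. With the block, 16 mitochondrial and 15 peroxisomal oxidation genes were higher in MT∆Ecad, and 1 mitochondrial gene was lower, in a fit that called 42.6% of all tested genes there.

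Of 18 storage genes 5 were higher and 1 lower in MT∆Ecad, beside 8.89% and 8.42% of all tested genes. Plin4, a lipid droplet coat protein, had 262 ± 27.4 CPM in siNrf2 and 133 ± 29.7 CPM in siCtl libraries of MT∆Ecad (SD, n = 2 each), a rise of 0.99 (SE 0.21, limma adjusted p 0.0124). Plin2, another coat protein, rose by 0.36 (0.0403), the lipase activator Abhd5 by 0.48 (0.0202) and the acyltransferase Gpam by 0.46 (0.0308), each by limma adjusted p. Dgat2, which catalyses the last step of triglyceride synthesis, fell by 0.70 (SE 0.16, limma adjusted p 0.0197). The PPAR target list shares genes such as Ehhadh, Plin2 and Acot2 with the lists above. Of it, 6 of 16 rose and 0 fell in MT∆Ecad by limma, beside 8.89% and 8.42% of all tested genes by limma. The counts were 9 and 1 at an unadjusted p under 0.05 by limma, with no share of all genes to set beside them. They were 4 and 0 by edgeR and by DESeq2. Angptl4, a secreted inhibitor of lipoprotein lipase, rose by 1.47 there (SE 0.19, limma adjusted p 0.00190), at 3.22 ± 0.443 CPM in siNrf2 and 0.522 ± 0.0969 CPM in siCtl libraries.

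Among synthesis and elongation genes outside the 9, 1 of 8 genes of CoA supply and chain building rose in MT∆Ecad, and 1 of 15 genes of elongation and desaturation fell. These counts are near the 8.89% and 8.42% of all tested genes called there, so they set neither list apart. The riser was Mlycd, which breaks down malonyl-CoA (1.04, SE 0.18, limma adjusted p 0.00555), and the gene that fell was the very-long-chain elongase Elovl4 (−0.56, SE 0.12, limma adjusted p 0.0139). Elovl4 had 0 CPM in both PyMT-1099 LT groups, which add no spread to the estimate shared by all groups, so this SE may be too small. Scd4, a desaturase of low level, fell in PyMT-1099 LT (−0.95, limma adjusted p 0.0408), a call that neither edgeR nor DESeq2 made, and on average (−0.48, SE 0.09, limma adjusted p 0.0137). The elongase Elovl7 (0.25) and Degs1, a desaturase of sphingolipid synthesis (0.19), rose on average and Mecr, of mitochondrial fatty acid synthesis, fell (−0.25), with limma adjusted p of 0.0365, 0.0451 and 0.0425. Of the uptake and binding genes, 2 of 15 fell in MT∆Ecad, beside 8.42% of all tested genes: the fatty acid binding protein Fabp5 (−0.62, SE 0.12, limma adjusted p 0.00863) and the acyl-CoA synthetase Acsbg1 (−1.16, SE 0.14, limma adjusted p 0.00144). Slc27a6, of the fatty acid transporter family, fell in PyMT-1099 LT by limma (−0.59, adjusted p 0.0123) and was not called there by edgeR or DESeq2.

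Of 25 regulators, 2 rose and 3 fell on average, beside 5.99% and 6.26% of all tested genes, and 2 rose and 1 fell in MT∆Ecad, beside 8.89% and 8.42%. Insig2 and the liver X receptor gene Nr1h3 rose on average (0.25 and 0.20, limma adjusted p 0.0384 and 0.0411), while Insig1, which like Insig2 holds SREBP factors in the endoplasmic reticulum, fell (−0.24, 0.0398). The coactivator gene Ppargc1b (−0.37, limma adjusted p 0.0201) and Prkag2, a subunit of the AMP-activated kinase (−0.28, limma adjusted p 0.0322), fell as well. Of 24 sterol genes 1 rose and 2 fell on average. With so few calls, neither list is set apart from all tested genes. Tm7sf2 rose (0.35, limma adjusted p 0.0433), and Insig1, which both lists hold, was among the lower genes. On the average edgeR called fewer of these lists: 1 regulator higher and 0 lower, 0 sterol genes higher and 1 lower, and 0 genes of CoA supply and chain building. With the block, 10 storage genes were higher and 1 lower in MT∆Ecad, as were 10 and 1 PPAR targets, 8 and 4 regulators, 6 and 1 sterol genes, 4 and 1 genes of CoA supply and chain building, 3 and 4 of elongation and desaturation and 3 and 2 of uptake and binding, in a fit that called 42.6% of all tested genes there.

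**Figure D4:**
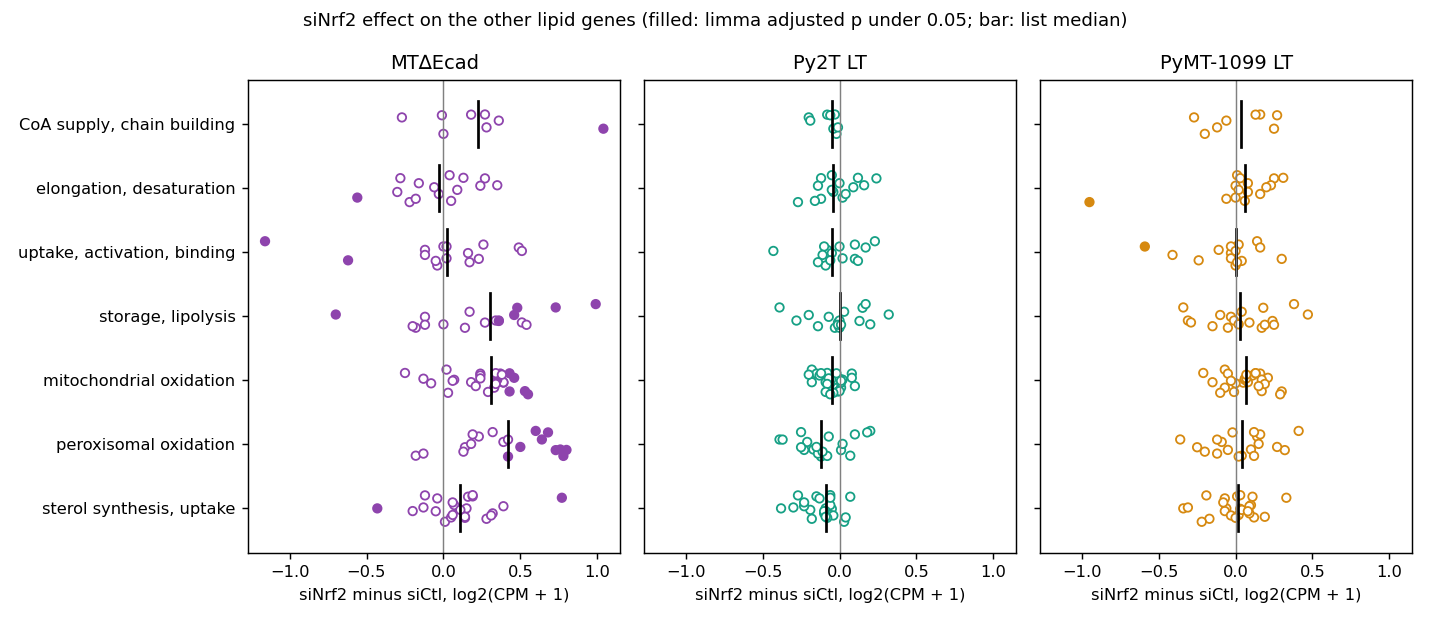
siNrf2 minus siCtl on the log2(CPM + 1) scale (horizontal) for each tested gene of 7 lists of lipid genes (rows, shifted up or down at random for view) in MT∆Ecad, Py2T LT and PyMT-1099 LT, filled where the limma adjusted p was under 0.05, with a bar at the median of the list. In MT∆Ecad the bars of peroxisomal and mitochondrial oxidation stand at 0.42 and 0.31, and the filled points in the other lines are Scd4 and Slc27a6 in PyMT-1099 LT, called by limma alone.

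The genes whose pattern was most like that of each member were found by Pearson's r of log2(CPM + 1), centred on the mean of each line, over the 12 libraries and 10263 genes with a mean of at least 5 CPM. The highest were Lmod1 for Acss2 (0.99), Prkaa2 for Elovl6 (0.989), Nagk for Ech1 (0.986), Arhgap22 for Fasn (0.982) and Stat2 for Scd2 (0.98). Asap1 for Acaca (0.967), Osbpl2 for Cpt1a (0.962), Irf1 for Scd1 (0.961) and Zbtb3 for Acly (0.96) followed. The next for each were Fam135b, Atxn7, Adcy7, Phrf1, Rassf3, 2700049A03Rik, Anxa8, Gas1 and Plekhm1 in the same order of members, with r from 0.944 for Anxa8 to 0.989 for Fam135b. These are the highest of many values from the same 12 libraries, which share the siRNA split and the replicate numbers, and they are given as a description.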

How the data were processed

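Total RNA (200 ng) was depleted of ribosomal RNA, made into stranded libraries and sequenced as single reads of 81 nt, per the labels' protocols. The submitters' processing notes name STAR and the mouse build mm10. The counting tool, its annotation and its strand setting are not given in the sources used here. The authors deposited CPM, counts per 1000000 reads, and 100% of the values came out as whole reads within 0.01 of a read. Totals were 27088970 to 37070635 reads, and 3 reads, the limit that a count of 0 allows, are at most 0.1107 CPM. Symbols came from RefSeq (24374 of 24454 IDs).

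limma 3.58.1 in R 4.3.3 was fitted to log2(CPM + 1) of 12502 genes in all 12 libraries, with a mean for each of 6 groups, a mean trend and 6 residual degrees of freedom. Tests were two-sided, with Benjamini-Hochberg adjustment over all tested genes and a threshold of 0.05. SE belongs to the fitted log2 difference, and SD is over 2 libraries. edgeR 4.0.16 and DESeq2 1.42.0 on the recovered reads, other pseudocounts and filters, TMM scaling, the line alone and fits without a library were alternatives. On simulated data the average fit recovered 95% of changes of 0.5 and 100% of changes of 1 (log2), and the MT∆Ecad contrast 60% and 94%. That simulation gave all genes the same fixed dispersion and same-numbered libraries no shared deviation. Its changes were placed only in genes with a mean of at least 5 CPM. The spread of the real replicates was not matched, so these rates check the code and do not give the power of the real fits.

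The replicate numbers come from the labels, which do not say what they mark. Deviations of same-numbered libraries from their group means correlated at 0.625 in MT∆Ecad, 0.846 in Py2T LT and 0.778 in PyMT-1099 LT, so the numbers were taken to pair libraries. The fit with this block has 3 residual degrees of freedom. The replicates differed by more than read sampling allows, and p-values measure the spread between these cultures only. The members, lists and rules were chosen with earlier results of these data known. From each list, up to 5 genes called in the average or in a line, with the largest average change and a mean of at least 2 CPM, were named, and for each member the 2 genes most like it. Some of the list genes this rule chose are not reported here.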

Additional observations from a re-analysis of the deposited data

Results flagged for a closer look

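The siNrf2 effect on Acss2 differed between the lines (limma F test, adjusted p 0.0134). Its log2 change was 1.12 in MT∆Ecad, 0.03 in Py2T LT and −0.02 in PyMT-1099 LT, and both siNrf2 libraries of MT∆Ecad (34.6 and 40.4 CPM) lay above both siCtl libraries (15.5 and 17.8 CPM). The summed mesenchymal, epithelial, and immune and endothelial markers were higher with siNrf2 in MT∆Ecad and also in PyMT-1099 LT. These sums follow their most abundant genes, and the median log2 changes of the tested markers in MT∆Ecad were 0.20, 0.01 and 0.06. The part of these markers in the Acss2 difference was not tested.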

How the results depend on the processing

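Over the 9 genes and Nfe2l2, 1330 values were recomputed under the alternatives: 1216 kept their direction and side of the threshold, 62 lost a call, 17 gained one and 35 changed sign, 0 of these with a call either way. The replicate block, paired within lines, raised the genes called to 4997 (from 1532) for the average, 5324 (2164) in MT∆Ecad, 127 (19) in Py2T LT, 1125 (65) in PyMT-1099 LT and 2377 (273) for the difference between lines. It called 6 members for the average, 3 in PyMT-1099 LT and 5 for the difference. edgeR called 856 genes for the average, 6 in Py2T LT, 13 in PyMT-1099 LT, and 20 genes and 0 members for the difference, and DESeq2 called 33 in Py2T LT. A pseudocount of 0.25 gave 10 genes in Py2T LT, 28 in PyMT-1099 LT and 122 for the difference. No filter gave 30 in Py2T LT and 125 in PyMT-1099 LT, and a filter at 5 CPM gave 12 and 36. The 4 libraries of a line alone gave 1116 genes and 1 member (Acss2) in MT∆Ecad and 0 genes in Py2T LT and PyMT-1099 LT. Nfe2l2 itself, at −1.86 in Py2T LT and −1.91 in PyMT-1099 LT, was not called in these fits, so their 0 genes do not show a lack of response. Why these settings moved the counts was not tested, beyond the fewer libraries of a line alone. Fits without a library gave 660 to 2126 genes and 1 to 3 members for the average, 576 to 2664 genes and 1 to 5 members in MT∆Ecad, 5 to 11 genes in Py2T LT, 7 to 67 in PyMT-1099 LT, and 29 to 189 genes and 0 to 1 members for the difference. A lone sample of a group was then assumed to vary like the other groups. Signs changed only for values without a call. Acly was at −0.00038 by TMM and −0.00021 by edgeR in PyMT-1099 LT, and at 0.02, 0.02 and 0.03 by TMM, edgeR and DESeq2 in Py2T LT, and Cpt1a in siCtl of MT∆Ecad minus Py2T LT was at 0.01 by each of these 3. Without a library, the values that crossed 0 were Acly on average (−0.01 to 0.02). In MT∆Ecad they were Acly (−0.03 to 0.06) and Elovl6 (−0.17 to 0.03). In Py2T LT they were Fasn (−0.24 to 0.06), Acaca (−0.23 to 0.04), Acly (−0.02 to 0.02), Acss2 (−0.04 to 0.11), Elovl6 (−0.51 to 0.30), Cpt1a (−0.08 to 0.26) and Ech1 (−0.02 to 0.21). In PyMT-1099 LT they were Scd2 (−0.03 to 0.18), Fasn (−0.09 to 0.05), Acaca (−0.10 to 0.01) and Acly (−0.01 to 0.02), and between MT∆Ecad and Py2T LT siCtl libraries Cpt1a (−0.17 to 0.17). Depth limits Scd1 in PyMT-1099 LT, where 12 to 17 reads cannot show a moderate change.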
